A study of Drosophila melanogaster with 24 samples.

Results

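The transcripts described here are those whose level in the Zimbabwe-109 strain of Drosophila melanogaster stood apart from 3 other strains at 2 stages on either side of puparium formation. They were selected on the measured strain means of log2 array intensities, quantile normalized over 24 arrays and each mean being over the 3 arrays of a strain and stage. A transcript belonged to the set if its Zimbabwe-109 mean lay above each of the other 3 strain means by at least 0.5 in late larvae and again in prepupae, or below each of them by at least 0.5 at both stages. A difference of 1 on this scale is a 2-fold difference in intensity. Of 16637 FlyBase transcripts on the array, 108 met the rule, 56 of them higher (0.337% of all transcripts) and 52 lower (0.313%) in Zimbabwe-109. Since the strain differences chose these transcripts, they are given below as a description and carry no test. The distance from the Zimbabwe-109 mean to the nearest other strain mean is called the margin.

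The series compared whole animals of the wild-type strains Oregon-R, Canton-S, Samarkand and Zimbabwe-109 as late larvae (labelled 18BPF, late in the last larval instar) and as white prepupae (labelled PF). Each of the 8 groups held 3 biological replicates on 1 single-colour (cy3) array each. No group carried a mutation, transgene or drug, and all animals were raised at 25 °C on food with 0.05% bromophenol blue. A replicate was a pool of 60 to 80 frozen animals, about 120 mg, and RNA was extracted separately for each strain. Strain and extraction therefore cannot be told apart. In whole animals, fewer cells that express a gene and less RNA per cell cannot be told apart either.

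Zimbabwe lines come from southern Africa, within the ancestral range of the species, from which the populations now found worldwide later spread. Some of them are known for partial mating isolation, in which their females discriminate against males of worldwide populations. Oregon-R and Canton-S are laboratory stocks of American origin, and Samarkand is named after a city in Central Asia. A pulse of the steroid hormone ecdysone at the end of larval life triggers puparium formation, when feeding has ended, salivary glue proteins are expelled and larval tissues begin to be replaced.

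None of the 108 transcripts is listed with a gene in the reference gene table used here (Release 6), which holds 44 of the 16637 identifiers. The set is therefore described by its levels, with 2 higher and 2 lower transcripts given by identifier, and no gene, function or pathway is attached to any of them. No array probe or transcript sequence was analysed here.

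The same rule gave 276 transcripts for Canton-S (123 higher, 153 lower), 61 for Samarkand (30 higher, 31 lower) and 39 for Oregon-R (20 higher, 19 lower). The Zimbabwe-109 set was thus the second in size of the 4, at 0.649% of all transcripts against 1.66% for Canton-S, 0.367% for Samarkand and 0.234% for Oregon-R. These counts come from the same arrays and were not tested against each other.

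The arrays were checked before the levels were read. As deposited, the medians ran from 2176 to 3289 in Zimbabwe-109 and from 1936 to 3169 in the other strains. The dimmest transcript of each array read between 220 and 252 in the 6 Zimbabwe-109 arrays and no higher than 199 in the 18 others, so these ranges did not overlap before scaling. On an axis that is 0 at the mean larval profile and 1 at the mean prepupal profile of the other 3 strains, Zimbabwe-109 larvae lay from 0.044 to 0.304 (replicates 1, 3 and 4 at 0.044, 0.304 and 0.299) and the larvae of other strains from -0.302 to 0.343. Zimbabwe-109 prepupae lay from 0.858 to 1.023 (replicates 2, 3 and 4 at 0.858, 1.004 and 1.023) and the others from 0.831 to 1.121. At both stages the Zimbabwe-109 arrays were within the range of the other strains on this axis. In larvae the upper end of that range came from Oregon-R alone (0.295 to 0.343). Canton-S and Samarkand larvae lay from -0.302 to 0.035, below every Zimbabwe-109 larval array.

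In 2 of the Zimbabwe-109 arrays the higher transcripts stood further out than in the rest. The median level of the 56 higher transcripts was 11.69, 11.96 and 11.80 in larval replicates 1, 3 and 4, and 11.98, 11.69 and 11.81 in prepupal replicates 2, 3 and 4. In the 18 arrays of the other strains the same median lay between 10.689 and 11.055, below all 6. Larval replicate 3 was the highest of its group in 35 of the 56 transcripts, and prepupal replicate 2 in 37 of the 56. The deviations of these 2 arrays from their group means over all 16637 transcripts were correlated (r = 0.62). This was the largest value among all pairs of a larval and a prepupal Zimbabwe-109 array, which ran from -0.63 to 0.62. Deviations within a group offset each other, so the values of the pairs are linked. They are taken across transcripts, which are no independent replicates. The 52 lower transcripts had medians from 10.87 to 11.002 in the Zimbabwe-109 arrays and from 11.66 to 11.87 in the others. Larval replicate 3 was the lowest of its group in 25 of the 52, and prepupal replicates 2 and 3 in 22 and 21.

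**Figure D1:**
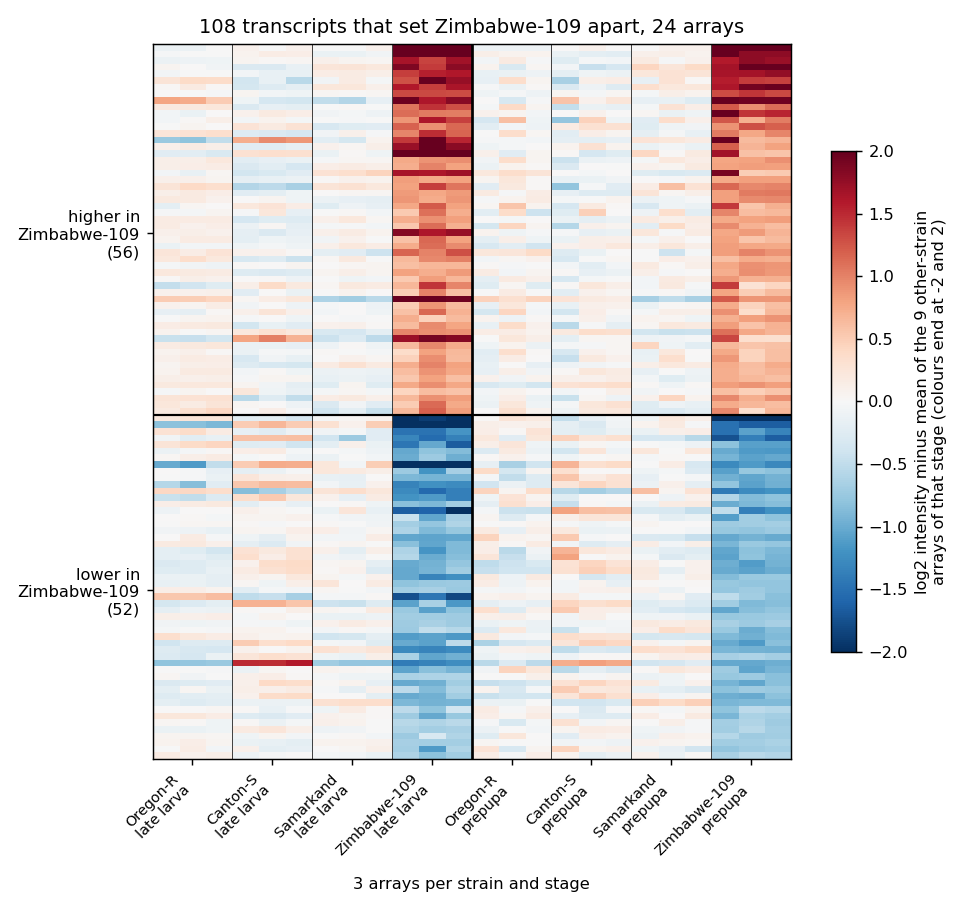
Heat map of the 108 transcripts (rows, ordered by margin within the 56 higher and 52 lower) in the 24 arrays (columns, 3 per strain and stage). Colour is the log2 intensity minus the mean of the 9 arrays of the other strains at that stage, and the Zimbabwe-109 columns are red in the upper block and blue in the lower block at both stages.

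The widest separation was in FBtr0072462, which was bright in Zimbabwe-109 and at the bottom of the array range in the other strains. Its log2 intensity was 10.96, 11.30 and 11.05 in the larval and 11.31, 11.10 and 11.16 in the prepupal Zimbabwe-109 arrays. In the 18 other arrays it ran from 7.57 to 7.76 with a median of 7.68, so the groups were far from overlapping. As deposited, the intensity was 2137 to 2581 in Zimbabwe-109 and 168 to 226 elsewhere. It was the dimmest transcript of the whole array in 5 of those 18 arrays, and no more than 2 transcripts were dimmer in any of them. The margin was 3.37 in larvae and 3.46 in prepupae, or 10.3-fold at the smaller. The files hold no background or detection call, so a signal of zero in the other strains cannot be told from a low one, and the size of this fold rests on the dim end of the scale. In Zimbabwe-109 the transcript was of ordinary brightness, at the 42.1 percentile of all array values.

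FBtr0273369 was of middle brightness in the other strains and among the bright transcripts in Zimbabwe-109. It read 13.57, 13.73 and 13.62 in Zimbabwe-109 larvae and 13.48, 13.08 and 13.09 in the prepupae. The 18 other arrays lay between 11.08 and 11.45. The strain means of the other larvae were 11.29 ± 0.01 (SD, n = 3) in Oregon-R, 11.42 ± 0.04 (SD, n = 3) in Canton-S and 11.19 ± 0.03 (SD, n = 3) in Samarkand, against 13.64 ± 0.08 (SD, n = 3) in Zimbabwe-109. The margin was 2.22 in larvae and 1.83 in prepupae, at least 3.55-fold at both stages. Prepupal replicate 2 was the highest of its group, and without it the smaller margin was 1.70. The other strains held this transcript at the 48.2 percentile of array values and Zimbabwe-109 at the 97.1 percentile.

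FBtr0071727 was the lower transcript with the largest margin. It read 7.93, 8.26 and 7.93 in Zimbabwe-109 larvae and 8.35, 8.03 and 8.15 in the prepupae, while the 18 other arrays ran from 9.82 to 10.62 with a median of 10.29. All 6 Zimbabwe-109 arrays were below all the others. Its intensity as deposited was 295 to 334 in Zimbabwe-109, where only 4 to 13 transcripts per array were dimmer, and 648 to 1678 elsewhere. The signed margin was -1.87 in larvae and -1.95 in prepupae, or 3.65-fold at the smaller. With normexp background correction, which changes dim values most, that smaller margin was 1.06, and with the arrays left unscaled it was 1.25.

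FBtr0086514 combined a low level in Zimbabwe-109 with a level in the other strains that depended on stage. In Zimbabwe-109 it read 8.15 in each of the 3 larval arrays and 7.93, 7.76 and 7.76 in the prepupal arrays. The equal larval values come from the normalization, since the intensities as deposited were 348, 287 and 336. In the prepupal arrays these were 258, 285 and 298. Canton-S and Samarkand larvae stood at 10.92 ± 0.09 (SD, n = 3) and 10.66 ± 0.21 (SD, n = 3), and Oregon-R larvae at 9.51 ± 0.04 (SD, n = 3). In prepupae the 3 strains were close together, at 9.52, 9.24 and 9.49 in Oregon-R, Canton-S and Samarkand. The signed margin was -1.36 in larvae and -1.42 in prepupae. In each Zimbabwe-109 array, 2 to 7 transcripts were dimmer, so that there the transcript was at the bottom of the range, and with normexp its smaller margin was 0.46, which no longer met the rule.

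Few named transcripts are available to set beside these 4. Among the 16 transcripts with 1 gene name, the pattern over the 8 group means was most like that of FBtr0072462 and FBtr0273369 in sle (Pearson r = 0.47 and 0.46), followed by His4r, a histone H4 gene (0.38 and 0.34), and LanA, a laminin chain (0.10 and 0.09). For FBtr0071727 the closest was Uba1, the ubiquitin-activating enzyme (r = 0.69), then mio (0.52) and rdx (0.41). For FBtr0086514 it was mio (r = 0.79), then alpha-Spec, a spectrin of the membrane skeleton (0.78), and kis, a chromatin remodeller (0.76). These values describe 8 points that share arrays and scaling, among few candidates.

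**Figure D2:**
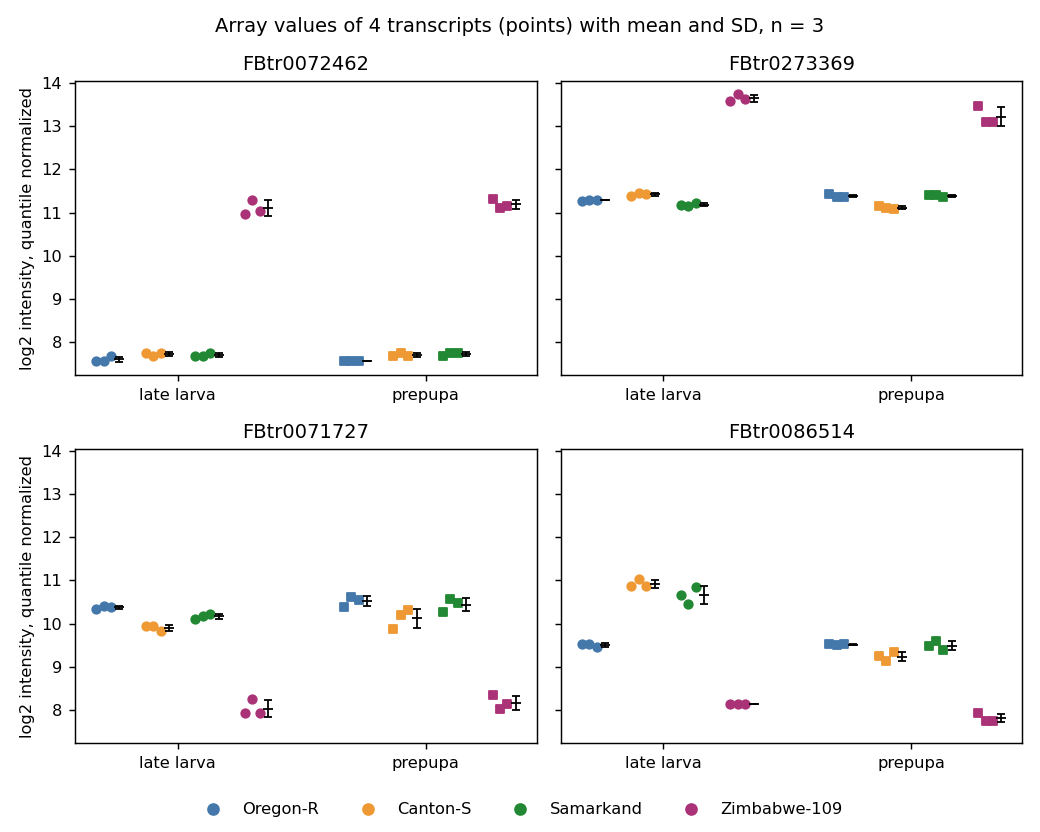
Log2 intensity (vertical axis, quantile normalized) of the 4 transcripts given by identifier in each strain and stage. Coloured points are single arrays and the black bar beside them is the mean with its SD (n = 3), and in each panel the 6 Zimbabwe-109 points lie apart from the other 18.

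Most of the set differed far less than these 4. The smaller of the 2 stage margins had a median of 0.65 among the higher transcripts (range 0.51 to 3.37) and 0.59 among the lower ones (range 0.51 to 1.87), which is 1.57-fold and 1.51-fold. It reached 1 in 12 of the 108 transcripts, 9 of them higher and 3 lower, and was under 0.6 in 47. The members nearest the threshold had margins of 0.514 (higher) and 0.512 (lower), and the transcripts just outside it 0.498 and 0.495. Within 0.05 of the threshold there were 23 members inside, 10 higher and 13 lower, and 40 transcripts outside, 23 and 17.

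Within each stage the arrays separated almost completely. In 54 of the 56 higher transcripts the 3 Zimbabwe-109 arrays lay above the 9 arrays of the other strains at both stages, and in 52 of the 52 lower ones they lay below. Over all transcripts this separation was found in 3.85% for higher and 3.45% for lower levels. Pooled over the stages, so that all 6 Zimbabwe-109 arrays had to lie beyond all 18 others, the counts were 36 of 56 and 44 of 52, against 1.70% and 1.85% of all transcripts. These shares come from the values that chose the set, and no inference is drawn from them. The SD between replicates, averaged over the 8 groups, had a median of 0.110 over the set and 0.0888 over all transcripts. In the set it ran from 0.025 to 0.275.

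The larval and prepupal margins were usually close. They were within 0.25 of each other in 90 of the 108 transcripts, 45 in each direction. The larval margin was the larger in 62 of the 108. In 8 transcripts it exceeded the prepupal one by more than 0.5, and in 2 the prepupal margin was the larger by that much. The most uneven member, higher in Zimbabwe-109 and of rank 17 by margin, had a larval margin of 2.09 and a prepupal margin of 0.73. Its Zimbabwe-109 arrays read 14.00, 13.84 and 13.75 in larvae and 12.66, 11.57 and 11.54 in prepupae, where replicate 2 stood above the other two.

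**Figure D3:**
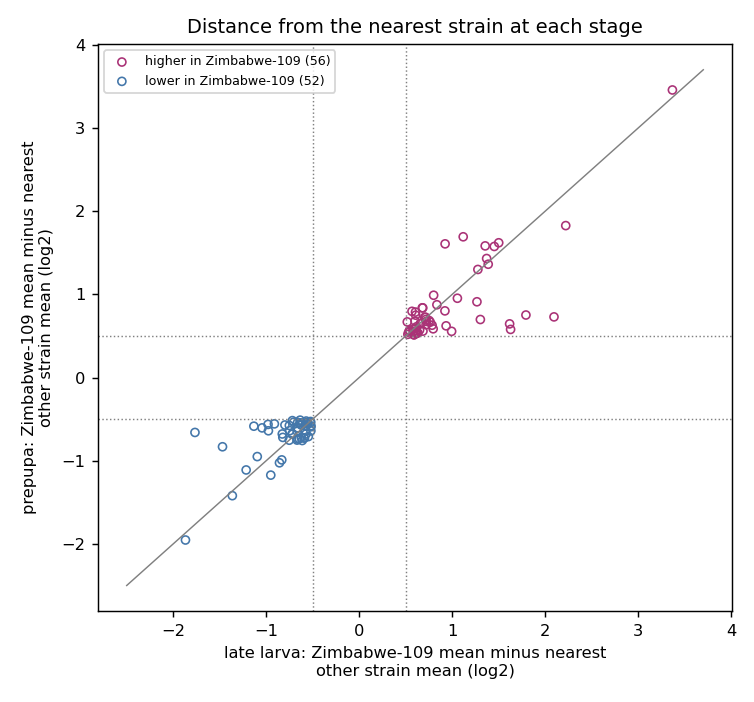
Zimbabwe-109 mean minus the nearest other strain mean (log2) in late larvae (horizontal axis) and in prepupae (vertical axis) for the 56 higher and 52 lower transcripts. Dotted lines mark the threshold of 0.5, the solid line marks equal margins, and 90 of the 108 points lie within 0.25 of it.

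The higher and lower transcripts occupied mirrored ranges of brightness. The rule itself builds in their opposite shifts between Zimbabwe-109 and the other strains, so the values are a description. In the other 3 strains, the median level was 10.96 for the higher and 11.82 for the lower transcripts, beside 11.35 for all transcripts. In Zimbabwe-109 it was 11.88 for the higher and 10.98 for the lower ones. In the other strains 24 of the 56 higher transcripts were in the lowest 25% of array values, and in Zimbabwe-109 only 3 of them were. Of the 52 lower transcripts 7 were in that range in the other strains and 23 in Zimbabwe-109. The dimmer side lay in the lowest 5% of values (log2 intensity under 9.68) in 11 of the 108 transcripts, where intensity tracks RNA amount least well.

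No single strain was always the closest to Zimbabwe-109. In larvae the nearest strain was Oregon-R for 58 transcripts, Canton-S for 29 and Samarkand for 21. In prepupae it was Samarkand for 44, Canton-S for 34 and Oregon-R for 30. The other 3 strains differed among themselves about as much as they did over all transcripts. The median range of their means was 0.33 in larvae and 0.28 in prepupae over the set, and 0.34 and 0.28 over all transcripts. The widest range, 2.29, was that of a lower transcript of rank 38, whose larval mean was 11.70 in Canton-S but 9.41 in Oregon-R and 9.43 in Samarkand, with Zimbabwe-109 at 8.85.

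Some members had neighbouring identifiers. Identifiers whose numbers followed each other within 10 formed 8 runs that held 19 of the 108 members, 5 pairs among the higher and 2 pairs and a run of 5 among the lower transcripts. Counting each run once would leave 97 entries. The reference table does not say whether the transcripts of a run belong to one gene.

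The change from late larva to prepupa, averaged over the 4 strains, was not itself used by the rule. Its weights are orthogonal to those of every strain difference within a stage, though it includes the same Zimbabwe-109 means. Full independence would need an equal spread in all groups. The median SD over all transcripts ran from 0.0404 in Oregon-R larvae to 0.12 in Canton-S prepupae. The mean stage change was tested with limma on all 16637 transcripts, with Benjamini-Hochberg adjustment and a threshold of 0.05. Of the 108 transcripts, 49 rose (45.4%), 31 fell (28.7%) and 28 did not pass. Over all transcripts 45% rose and 26.4% fell, so the set changed between stages at close to the background rate. The median change was 0.07 on the log2 scale in the set and 0.07 over all transcripts. Among the higher transcripts 28 rose and 17 fell, and among the lower ones 21 rose and 14 fell. With the arrays left unscaled, 20 of the 108 rose and 25 fell, so that the share of rises among the calls went from 61.2% to 44.4%, beside 63.0% and 51.9% over all transcripts. Without the dimmest 30% of transcripts it was 50.9%, beside 63.7% over all transcripts kept.

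Large stage changes in the set were falls, and over all transcripts they were mostly falls too, with 502 falls and 144 rises of at least 2-fold. A decline of at least 2-fold was called in 10 of the 108 transcripts (9.26%), 6 higher and 4 lower in Zimbabwe-109, against 3.02% of all transcripts, and this difference in shares was not tested. Some of the 6 higher ones met the rule only with Zimbabwe-109 prepupal replicate 2, such as the member of rank 20 described below. Among the 4 lower ones was a pair with neighbouring identifiers (ranks 5 and 28), correlated at r = 0.97 over the 24 arrays. No member rose at least 2-fold, where 0.866% of all transcripts did, a share too small for 108 members to show a lack of rises. The deepest fall, -2.57 ± 0.09 (SE, 12 arrays per stage, limma adjusted p = 2.40e-15), was in a lower transcript of rank 15. Its larval means were 13.47 in Oregon-R, 13.54 in Canton-S and 13.49 in Samarkand, and 11.70 in Zimbabwe-109. Its prepupal means were 10.43, 11.40, 10.37 and 9.71 in the same order, so it fell in 4 of 4 strains. The steepest rise, 0.80 ± 0.07 (limma adjusted p = 5.95e-09), was in a lower transcript of rank 51, also with the same sign in 4 of 4 strains. One sign in all 4 strains was found for 71 of the 108 transcripts (65.7%), close to the 63.9% of all transcripts.

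Of the 4 transcripts given by identifier, FBtr0086514 had the largest mean stage change. It fell by 0.79 ± 0.04 on the log2 scale (SE, limma adjusted p = 1.05e-12), with a change of -1.68 in Canton-S and -1.16 in Samarkand. In Zimbabwe-109 the change was -0.33, and in Oregon-R it was 0.01. The Zimbabwe-109 value lies at the dim end, where the deposited intensities of larvae and prepupae overlapped. FBtr0071727 rose by 0.19 ± 0.05 (limma adjusted p = 0.00391; 0.17 with adjusted p = 0.0802 when unscaled), with mean changes of 0.14 to 0.27 in the 4 strains. The normalized arrays of the stages were fully apart in only 1 of the 4 strains. In Zimbabwe-109, where this transcript was at the dim end, the deposited intensities were 334, 301 and 314 in larvae. In prepupae they were 295, 297 and 323, so no rise was seen there before scaling. FBtr0273369 had a mean change of -0.11 ± 0.04 (limma adjusted p = 0.0135; -0.15 with adjusted p = 0.138 when unscaled), an average over strains of opposite sign. Its change was 0.10 in Oregon-R and 0.20 in Samarkand, but -0.31 in Canton-S and -0.42 in Zimbabwe-109. FBtr0072462 did not pass, with a mean change of 0.01 ± 0.03 (limma adjusted p = 0.742).

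**Figure D4:**
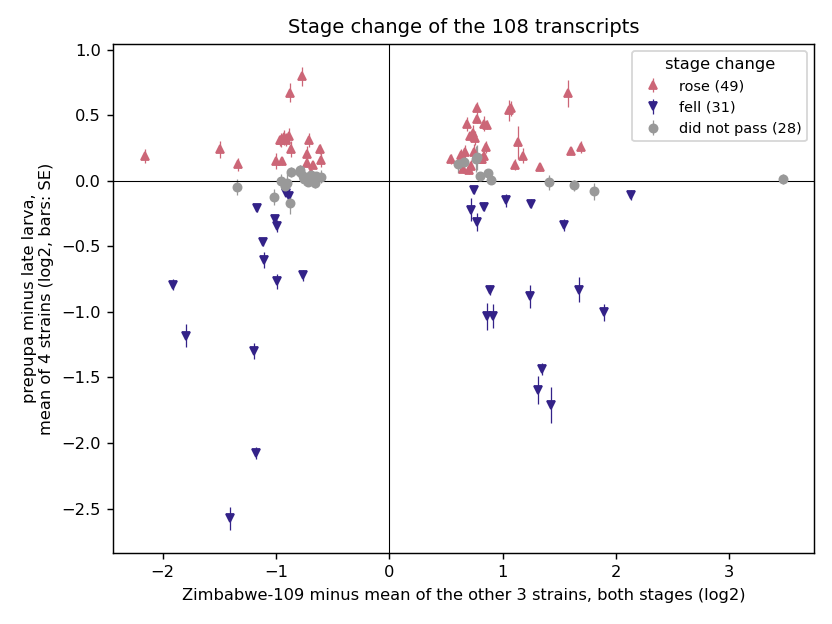
Mean change from late larva to prepupa over the 4 strains (vertical axis, log2, bars are SE) against the difference of Zimbabwe-109 from the mean of the other 3 strains (horizontal axis, log2) for the 108 transcripts. Triangles pointing up are the 49 that rose, triangles pointing down the 31 that fell and circles the 28 that did not pass, and the deep falls lie on both sides of the vertical line at 0.

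Among the transcripts that fell, the decline in Zimbabwe-109 differed in size from that in the other strains in opposite ways. This comparison uses the same strain differences as the rule and is a description. The average that defines a fall also includes the Zimbabwe-109 change, so a large decline there can itself make the call. The higher transcript of rank 29 changed by -0.90 in Zimbabwe-109, but by -0.05, 0.17 and 0.07 in Oregon-R, Canton-S and Samarkand. In all 14 falling transcripts that were lower in Zimbabwe-109, its own change was the smaller in size, with a median of -0.34 against -0.73 for the mean of the other 3 strains. It was not always a decline: the lower transcript of rank 38 changed by 0.04 in Zimbabwe-109 and by -1.04 in Canton-S. In 13 of the 17 falling transcripts that were higher in Zimbabwe-109, its own decline was the larger, with medians of -0.90 and -0.46. Where a transcript rose, Zimbabwe-109 changed less than the mean of the others in 18 of 28 higher and 17 of 21 lower transcripts. The same counts were not made over all transcripts, so whether these differences in size are particular to the set is not known.

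Membership of the higher transcripts leaned on 1 array in particular. Without prepupal replicate 2 of Zimbabwe-109, 40 transcripts met the rule in the higher direction, all of them members. Of the 16 that dropped out, 10 fell between stages, 4 rose and 2 did not pass. A higher transcript of rank 20 shows the pattern. It read 14.14, 14.11 and 14.18 in the Zimbabwe-109 larvae and 12.96, 11.55 and 11.58 in prepupal replicates 2, 3 and 4, so that replicate 2 stood between the stages. Without larval replicate 3, 12 higher and 6 lower transcripts dropped out. With both of these arrays left out, a choice made after the values were seen, 78 of the 108 still met the rule, 34 higher and 44 lower. The smallest margin among those that dropped out was 0.22, so none of them changed sign. The part of RNA quality or of the exact age of the pooled animals in these 2 arrays was not tested.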

How the data were processed

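Total RNA of 24 samples, 3 for each of 4 strains at 2 stages, was measured on single-colour NimbleGen arrays. The authors deposited 1 table of array intensity values on a linear scale, and the submitters' processing notes name RMA, with no version. The deposited intensities were whole numbers whose medians differed between arrays, so no common scale was present, and whether a background had been subtracted is not given in the sources used here. Quantile normalization of the log2 values used limma (3.58.1, under R 4.3.3), and all transcripts were kept. Precision is limited by the number of arrays.

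The mean stage change was fitted in limma with eBayes, with 1 mean per group and 16 residual degrees of freedom over the 24 arrays. Tests were two-sided and adjusted over 16637 transcripts. The fit and the rule were tested on simulated data. Shared replicate numbers were checked for pairing: deviations of the 9 same-numbered pairs within a strain correlated between -0.63 and 0.42, over 0.1 in 5. Because deviations from the mean of 3 arrays offset each other, these values cannot decide whether equal numbers mark paired samples. The fit above treated the arrays as unpaired, and replicate blocks were tried as alternatives.

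The transcripts and lists were chosen with earlier results of these data known. By the fixed rule for naming, members with 1 gene name were to be named, and there were none. By identifier, the 2 higher and 2 lower members with the largest smaller margin were taken among those in which 6 Zimbabwe-109 arrays lay beyond the 18 others. Members given by rank were singled out after their values were seen. Of 7 gene lists only 1, on cuticular hydrocarbons and lipids, had a named transcript (Fatp1), which was not a member. Gene names came from the reference table's synonyms, where 16 of the 44 listed identifiers belonged to 1 gene. The alternatives were median centring, no scaling, normexp (offset 50), leaving out the dimmest 30% of transcripts, a margin of 1, replicate blocks, and leaving out arrays. The genome build is not given in the sources used here, and coordinates were not used.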

Additional observations from a re-analysis of the deposited data

Results flagged for a closer look

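FBtr0273369 changed in opposite directions in different strains between late larva and prepupa. Its change was 0.10 in Oregon-R and 0.20 in Samarkand, and -0.31 in Canton-S and -0.42 in Zimbabwe-109, on the log2 scale. After quantile normalization the 3 prepupal arrays of each strain lay entirely to 1 side of its 3 larval arrays. In the deposited intensities the stages overlapped in 3 of the 4 strains, all but Zimbabwe-109. The difference between strains was not tested, because the rule that chose this transcript used the strain differences at both stages.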

How the results depend on the processing

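The direction of the strain difference held for every member under the scalings, the background correction and the left-out arrays tried, while membership depended on the processing. For some members the difference nearly vanished: among those that dropped out, the smallest margin was 0.02 with median centring and 0.03 without scaling. The 56 higher transcripts became 34 without scaling, 149 with normexp, 36 without the dimmest 30% of transcripts and 9 with a margin of 1. The 52 lower ones became 143 with normexp and 3 with a margin of 1. Of the 108 members, 82 met the rule with median centring, 59 without scaling and 104 with normexp. Leaving out 1 array gave 40 to 68 higher and 49 to 57 lower transcripts, and 88 to 108 members met the rule, fewest without Zimbabwe-109 prepupal replicate 2. Without larval replicate 4 and prepupal replicate 2 the number was 85. The members with no overlap over all arrays were 21 of the 36 higher ones left without the dimmest 30% and 22 of the 52 lower ones without scaling (36 to 43 and 44 to 46 with 1 array left out). The dim filter removed the other higher members before this count. In the main setting they were 36 of 56 and 44 of 52, against 1.70% and 1.85% of all transcripts, and no such shares are given for the other settings. Within each stage the members with no overlap were 34 of 36 higher ones without the dimmest 30% and 31 of 52 lower ones without scaling (54 to 56 and 52 with 1 array left out).

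For the mean stage change, 11887 transcripts and 80 members passed (11419 to 12372 and 75 to 84 with 1 array left out, members rising 45 to 52 and falling 29 to 32). Without scaling 6054 transcripts and 45 members passed, 20 of these members being rises. Without the dimmest 30%, where fewer transcripts were tested, 8758 transcripts and 53 members passed, 27 of these members being rises. Rises were then 50.9% of the member calls and 63.7% of all calls. A fixed replicate block, which drops the 6 arrays without a partner and leaves 5 residual degrees of freedom, gave 9886 transcripts and 70 members, and a random replicate block 11791 and 79. It changed no call of the 4 transcripts given by identifier. The cause of these shifts was not tested. Dim values limit the margins of FBtr0072462, FBtr0071727 and FBtr0086514.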
